A study of Mus musculus with 4 samples.

Results

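The genes described here are 10 imprinted growth genes, Meg3, Dlk1, Mest, Cdkn1c, H19, Igf2, Peg3, Plagl1, Grb10 and Gnas, read across gated cell lineages of the embryonic mouse kidney. They were chosen by symbol as a list of imprinted genes with roles in growth, and all 10 were found among the 27932 genes with a count in any library. The study profiled kidneys at E14.5, in mid-gestation, by Drop-seq, a droplet method that tags the 3' end of each captured RNA with a cell barcode and a unique molecular identifier (UMI). There were 2 wildtype libraries and 2 mutant libraries, the latter from mice whose genotype is given as Hoxa9,10,11 and Hoxd9,10,11 -/-, a combined mutation of Hox genes of the Abd-B class on both clusters. All 4 came from a mixed background, mostly CD-1 and 129. The labels do not say how many embryos went into a library, so the p-values measure only the spread between these libraries.

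Genomic imprinting silences one parental copy of a gene through methylation laid down in the germ line, and many imprinted genes act on fetal growth. Igf2 is a fetal growth factor, and H19 is the noncoding RNA made from the other parental chromosome at the same locus, under shared enhancers. Meg3, a noncoding RNA, and Dlk1, a transmembrane Delta-like protein, are a second such pair. Cdkn1c (p57) inhibits cyclin-dependent kinases, Grb10 is an adaptor that restrains insulin and IGF receptor signalling, Plagl1 and Peg3 are zinc finger transcription factors, Mest is a hydrolase-like protein of mesodermal tissues, and Gnas encodes the stimulatory G protein alpha subunit. Counts in these files do not separate the parental copies.

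In mm10, with GENCODE annotation, Dlk1 lies at chr12:109452823-109463336 and Meg3 at chr12:109541001-109571726, both on the plus strand. H19 (chr7:142575529-142578143), Igf2 (chr7:142650766-142666816), Cdkn1c (chr7:143458339-143461050) and Peg3 (chr7:6703892-6730431) are on the minus strand of chromosome 7. Mest is at chr6:30723547-30748465 on the plus strand, Plagl1 at chr10:13060504-13131694 on the plus strand, Grb10 at chr11:11930508-12038683 on the minus strand and Gnas at chr2:174284320-174346744 on the plus strand. Meg3 and H19 are annotated as long intergenic noncoding RNAs and the other 8 as protein coding.

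The promoters of the 3 genes called between the genotypes over all cells or within a lineage are shown because imprinting acts through methylation of CG dinucleotides, which are in capitals. They are RefSeq promoters of GRCm38.p6, each 300 bases (250 before the start site and 50 after it), and the table held promoters for 8 of the 10 genes. The sequences are those at chr12:109540746-109541045 for Meg3, chr12:109452573-109452872 for Dlk1 and chr6:30737800-30738099 for Mest, all on the plus strand; where RefSeq lists several starts, the one with the most CG dinucleotides is printed.
Meg3 promoter: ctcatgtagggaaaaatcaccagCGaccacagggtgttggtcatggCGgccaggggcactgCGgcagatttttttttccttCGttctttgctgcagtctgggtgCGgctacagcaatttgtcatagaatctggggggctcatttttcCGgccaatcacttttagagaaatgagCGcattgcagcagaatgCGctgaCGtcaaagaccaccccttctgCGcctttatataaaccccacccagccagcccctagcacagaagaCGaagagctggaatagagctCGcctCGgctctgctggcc
Dlk1 promoter: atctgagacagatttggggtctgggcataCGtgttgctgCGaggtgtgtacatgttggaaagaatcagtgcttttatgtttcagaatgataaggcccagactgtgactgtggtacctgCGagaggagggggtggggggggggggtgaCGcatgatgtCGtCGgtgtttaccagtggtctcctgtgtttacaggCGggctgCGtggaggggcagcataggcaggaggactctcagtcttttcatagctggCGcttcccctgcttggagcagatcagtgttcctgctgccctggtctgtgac
Mest promoter: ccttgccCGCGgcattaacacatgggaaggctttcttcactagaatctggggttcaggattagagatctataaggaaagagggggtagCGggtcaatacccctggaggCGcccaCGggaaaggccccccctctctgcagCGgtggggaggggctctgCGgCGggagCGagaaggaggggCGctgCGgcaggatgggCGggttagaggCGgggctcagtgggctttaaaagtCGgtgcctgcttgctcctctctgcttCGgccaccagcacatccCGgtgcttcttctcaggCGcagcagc
Meg3 held 13 CG dinucleotides, Dlk1 9 and Mest 17, against a median of 7 over the 32851 promoters of that length. Fewer were held by 62.1%, 54.2% and 68.6% of all promoters. For Meg3 and Mest the choice of start favours a value above the median, and other starts held 1 (Meg3) and 8 (Mest). The printed Meg3 promoter also held TATAAA, read on both strands, in 2 overlapping places, a motif found in 13.6% of all promoters, whereas neither the Dlk1 nor the Mest window held it. The 8-base motif GGGGCCCC, which reads the same on both strands, was found in the Peg3 promoter among the member promoters and in 1.08% of all promoters. No methylation was measured here.

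The transcripts of Meg3 and Mest, the genes called in ureteric bud, also host microRNAs. Both arms of each are shown from RefSeq with the seed (bases 2 to 8) in capitals, and no seed was shared.
miR-770-5p: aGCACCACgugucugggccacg
miR-770-3p: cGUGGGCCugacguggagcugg
miR-335-5p: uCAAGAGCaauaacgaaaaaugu
miR-335-3p: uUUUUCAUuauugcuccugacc
The miR-770 arms lie inside Meg3 at chr12:109563710-109563731 (5p) and chr12:109563744-109563765 (3p), and the miR-335 arms inside Mest at chr6:30741314-30741336 (5p) and chr6:30741354-30741375 (3p), each on the strand of its host. Drop-seq does not read mature microRNAs, and the Mir335 row of the files held 2, 1, 0 and 0 UMIs, so what follows is about the host transcripts only.

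The libraries, always in the order wildtype 1, wildtype 2, mutant 1 and mutant 2, held 9817486, 24834658, 3572346 and 21350698 UMIs, and 1852, 4788, 810 and 4329 cells were kept, with medians of 2467 to 3595 UMIs per cell. The mutant libraries had more barcodes above the mitochondrial limit of 10% (19.6% and 29.1%, against 7.76% and 9.06% in the wildtypes) and more Malat1, a nuclear RNA, at 4552 and 6550 CPM (the UMIs of a gene relative to all UMIs of the cells in question, on the usual CPM scale of sequencing counts) against 2277 and 1675. Their part in the results was not tested. The 6 targeted Hox genes were all read in the mutant libraries (28.1 to 196 CPM), and since a 3' tag need not lie in the mutated stretch, this does not check the labels. Cells were assigned to a lineage by UMIs of marker genes, which included none of the 10 genes. Stroma held 582, 1237, 419 and 2118 cells, endothelium 116, 204, 43 and 375, and ureteric bud and collecting duct 114, 201, 33 and 45, and these 3 lineages had at least 25 cells in every library and were tested. Nephron progenitors numbered 116, 424, 1 and 3, and no test between the genotypes was made in them.

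Of the 3 tested lineages, stroma, the interstitial mesenchyme around the nephrons, was the one richest in Dlk1, Meg3, Cdkn1c, Peg3 and Plagl1. Levels are in CPM throughout, and fold changes are from the quasi-likelihood test of edgeR, with p-values adjusted over all genes tested (Benjamini-Hochberg) and called below 0.05. The contrasts of one lineage against the others took the libraries of both genotypes together. With the library as a block and stroma set against the mean of endothelium and ureteric bud, 37.4% of 10566 genes were called, and so were 8 of the 10 genes, a contrast in which calls are common. Dlk1 was 6.22 higher on the log2 scale (SE 0.19, adjusted p = 5.9e-13), Meg3 3.75 (SE 0.30, adjusted p = 8.5e-05), Cdkn1c 2.97 (SE 0.23), Peg3 1.98 (SE 0.26) and Plagl1 1.03 (SE 0.11). Igf2 and Grb10 passed with small differences of 0.66 and 0.23, and Gnas was lower by a log2 value of -0.32.

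Endothelium was higher in Mest, Gnas and Igf2 than the mean of the other lineages tested. In that contrast 40.2% of genes were called, with 7 of the 10, and Mest was 2.12 higher (SE 0.45, adjusted p = 0.0095), Gnas 1.57 (SE 0.07) and Igf2 1.16 (SE 0.16). In wildtype endothelium Mest stood at 2434 and 2121 CPM, in wildtype stroma at 1823 and 1328, and in wildtype nephron progenitors at 1294 and 1098. Ureteric bud was lower than the other lineages in 7 of the 10, where 36.7% of genes were called, and Igf2 differed by -1.82 (SE 0.18) and Mest by -2.51 (SE 0.53). The Mest values of both contrasts average over genotypes that differed in ureteric bud. Mest there was at 763 and 459 CPM in the wildtypes and at 29.1 and 110 in the mutants, so these values describe neither genotype alone. Grb10 had its highest wildtype level in nephron progenitors, at 511 and 474, and was at 211 to 333 over stroma, endothelium and ureteric bud of the wildtypes. Within these 3 it was called lower in ureteric bud, by -0.44 (adjusted p = 0.00024). Wildtype proximal tubule (171 and 122) and immune cells (9.79 and 30.9) were lower still. H19 was called in none of the 3 contrasts, and its wildtype levels in stroma, 2481 and 1050, spanned those in endothelium, 1788 and 1316.

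**Figure D1:**
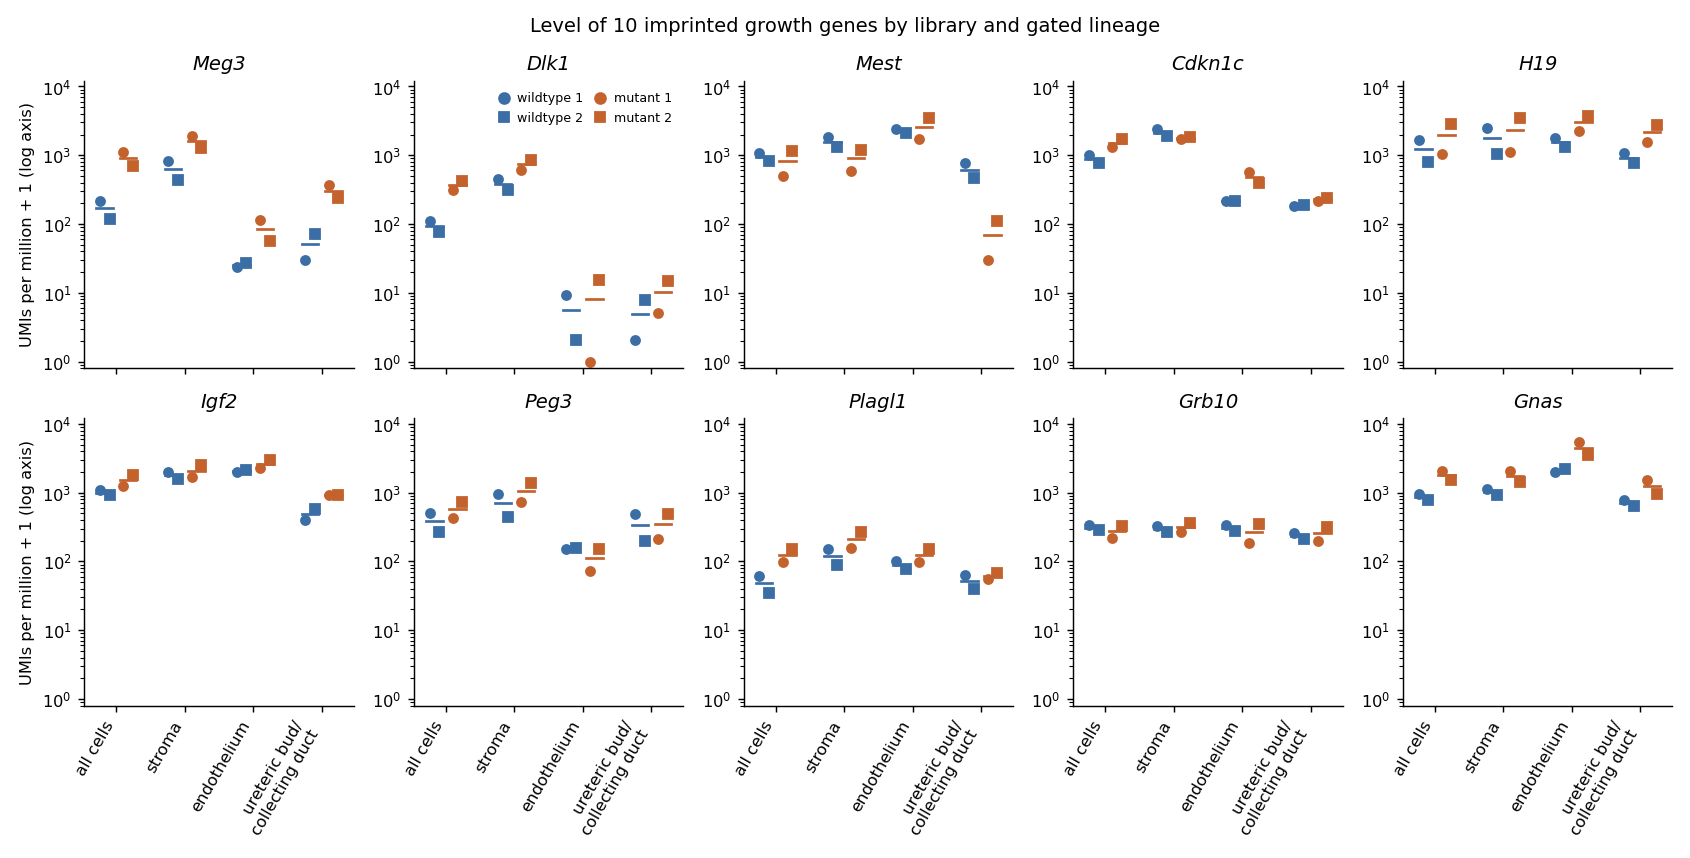
Level of each gene (CPM with 1 added, log axis) over all kept cells and in the 3 tested lineages, one point per library, with a bar at each genotype's mean. Meg3 and Dlk1 over all cells, and Meg3 and Mest in ureteric bud, show genotypes that stand apart, whereas Dlk1 in endothelium and ureteric bud is far below its level in stroma in every library.

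Meg3 and Dlk1, neighbours on chromosome 12, were the members higher in the mutant kidneys when all cells were summed. Meg3 was at 217 and 119 CPM in the wildtype libraries and at 1115 and 698 in the mutants, and Dlk1 at 110 and 76.3 against 311 and 427. The genotypes did not overlap for either gene. With 2 libraries per genotype, such a separation has an exact permutation p of 0.333, so genes with no difference often show it. Here and below it only describes these libraries, and the share of all genes that separate was not counted. The difference was 2.35 for Meg3 (SE 0.40, adjusted p = 0.0018) and 1.87 for Dlk1 (SE 0.34, adjusted p = 0.0027) on the log2 scale. These were 2 of 10 members, where 1.19% of 15776 genes were called (188, of which 139 were higher). In sums over all cells, more cells of a type and more RNA per cell cannot be told apart. The median log2 difference was 0.60 over the 10 members and 0.01 over all genes.

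Within stroma alone neither difference passed. Meg3 was at 830 and 434 in the wildtypes and at 1890 and 1279 in the mutants, a log2 difference of 1.39 (SE 0.48, adjusted p = 0.406). Dlk1 was at 450 and 309 against 612 and 866, a log2 difference of 0.96 (SE 0.40, adjusted p = 0.616). The libraries of both genes still separated by genotype, but 0.228% of 11855 genes were called in stroma and none of the 10 members was, by edgeR or by DESeq2, with 3 of them (Meg3, Dlk1 and Plagl1) under an unadjusted p of 0.05, as were 6.6% of all genes. Without mutant 2, Meg3 passed in stroma at 1.76 (adjusted p = 0.0325).

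Stroma held most of the UMIs of both genes, from 68.6% to 87.7% of Meg3 and from 76.1% to 94.1% of Dlk1. It also made up more of the mutant libraries, with 51.7% and 48.9% of kept cells against 31.4% and 25.8%. Recomputing the all-cell level with wildtype levels in each lineage and mutant shares of UMIs gave a log2 difference of 0.95 for Meg3, of 2.43 observed between the genotype means, and of 1.05 for Dlk1, of 1.99 observed. For the other 8 genes the same step gave between -0.08 (Grb10) and 0.64 (Plagl1). For Mest it gave 0.35 although the observed difference was -0.19, and for Gnas 0.21 of 1.06. These values have no test, and in sums of cells a change in share and a change in RNA per cell are separated only as far as the gates separate the lineages.

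**Figure D2:**
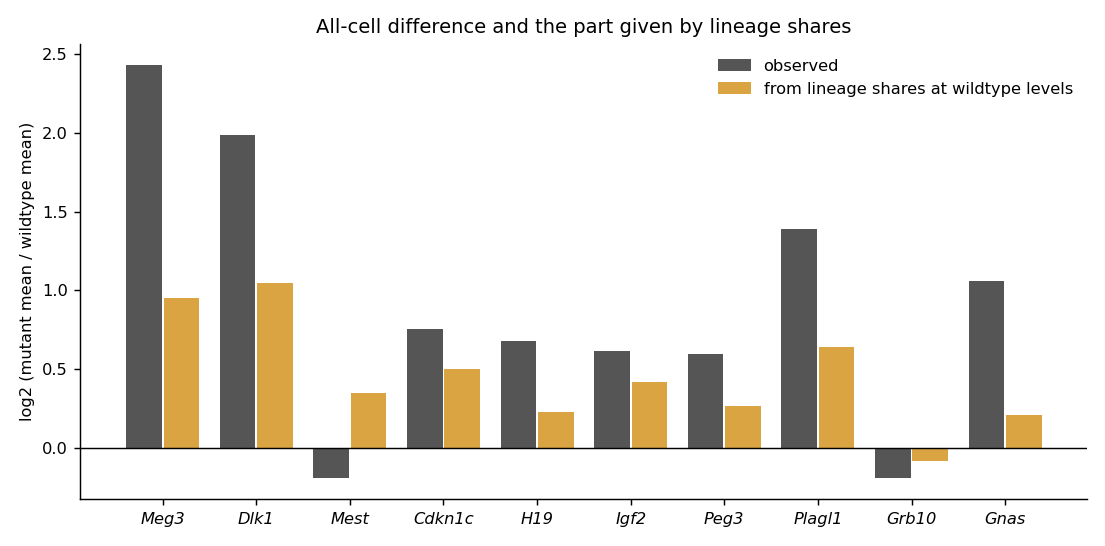
Log2 ratio of the mutant to the wildtype mean over all cells for each gene (grey) and the ratio obtained from the lineage shares alone with wildtype levels (gold). The gold bar is 0.95 of 2.43 for Meg3 and 1.05 of 1.99 for Dlk1, and for Mest the bars point in opposite directions.

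The share of stroma cells with a UMI of each gene gave the same order. After every cell was thinned to 1000 UMIs, Meg3 was read in 37.1% and 28.9% of wildtype stroma cells and in 63.8% and 58.7% of mutant ones. Dlk1 was read in 24.5% and 17.5% against 38.2% and 51.0%. In immune cells, which should lack both, Meg3 was read in at most 4.35% of cells and Dlk1 likewise, after the same thinning, over 26, 54, 23 and 51 cells. Stroma cells with a Meg3 UMI more often had a Dlk1 UMI than those without, 38.4% against 16.3% in wildtype 1, 28.7% against 12.9% in wildtype 2, 44.9% against 26.4% in mutant 1 and 62.0% against 35.2% in mutant 2. The ratio of Meg3 to Dlk1 UMIs in stroma was 1.85, 1.40, 3.09 and 1.48, so mutant 1 had the most Meg3 for its Dlk1 and mutant 2 lay between the wildtypes.

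**Figure D3:**
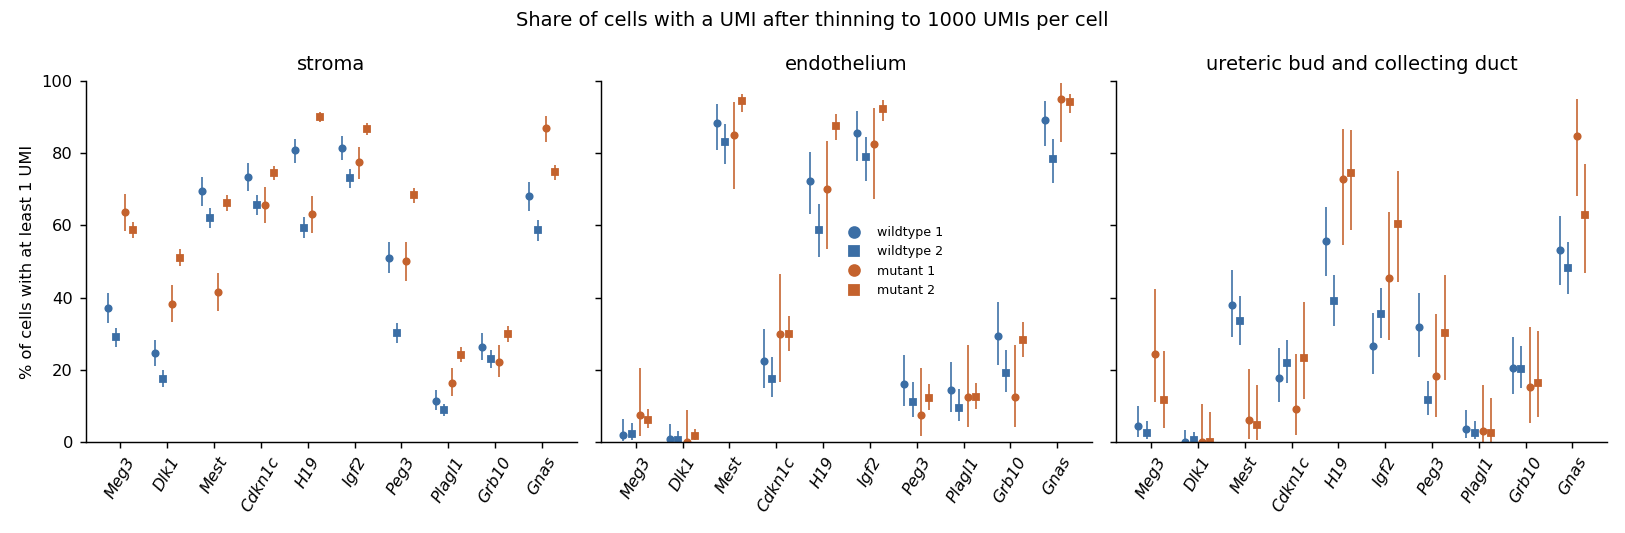
Share of cells with at least 1 UMI of each gene after thinning to 1000 UMIs, by library, with exact 95% binomial intervals that cover counting error only. In stroma the Meg3 and Dlk1 shares of both mutants lie above both wildtypes, and in ureteric bud Mest is at 38.1% and 33.5% in the wildtypes and at 6.06% and 4.65% in the mutants.

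A small group of cells carrying neural and neuroendocrine markers held Meg3 at levels far above stroma. It numbered 0, 4, 6 and 39 cells, and Meg3 stood at 1106 CPM in wildtype 2, 20522 in mutant 1 and 9895 in mutant 2. Gnas was also high there, at 2654, 14132 and 9179, and Dlk1 at 1106, 1475 and 3790. These cells held 9.67% and 9.91% of the mutants' Meg3 UMIs and 0.744% in wildtype 2. With them left out, the all-cell difference was 2.22 for Meg3 (adjusted p = 0.0027) and 1.83 for Dlk1 (adjusted p = 0.0035). Inside gated stroma, the summed level of the 10 neural markers was 25.3, 18.8, 24.5 and 31.3 CPM, with 5, 7, 6 and 10 of the 10 read.

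Stroma was not uniform in these genes. Sub-gates by 4 short marker lists placed 32.0%, 21.7%, 56.1% and 55.0% of stroma cells in a matrix group (Lum, Ogn, Dcn, Postn), which was larger in both mutants, and 25.1%, 21.5%, 14.8% and 13.7% in a cortical group (Foxd1, Ntn1, Crabp1, Fibin). In the matrix group Meg3 was at 1878 and 864 in the wildtypes and 1879 and 1545 in the mutants, so the genotypes were not apart beyond the spread between the wildtypes. In the cortical group Meg3 was at 463 and 374 against 1693 and 1098, and Dlk1 at 320 and 373 against 696 and 1034. The genotypes were separate there for both genes, as they were in the group of stroma cells with no sub-gate, where Meg3 was at 249 and 227 against 2483 and 981. These groups were not alike between the genotypes in other genes. In cortical cells the 4 matrix markers summed to 179 and 150 CPM in the wildtypes and to 548 and 422 in the mutants, against 2860 to 3774 in the matrix group, which is itself rich in Meg3. Of these, Postn passed the test in cortical cells (2.39, SE 0.38, adjusted p = 0.0045), Dcn and Lum were also above the wildtypes in both mutants without passing, and Ogn was below them. The cortical markers did not move together. Fibin was lower (-2.74, SE 0.45, adjusted p = 0.0057), and Ntn1 was also below the wildtypes in both mutants without passing (-0.81, SE 0.43). Crabp1 was above them in both mutants without passing (0.999, SE 0.42, adjusted p = 0.591), and Foxd1 overlapped (0.28, SE 0.35). In the cells with no sub-gate the matrix markers summed to 173 and 126 against 448 and 386. The part of these markers in the Meg3 and Dlk1 values was not tested. A fit of each group, added after these levels were seen, called no member in the cortical group (5 of 10 under an unadjusted p of 0.05, as were 7.06% of all genes), where 0.468% of 8768 genes were called, with Meg3 at 1.78 (SE 0.42, adjusted p = 0.0621) and Dlk1 at 1.32 (SE 0.39, adjusted p = 0.21). The matrix group also had no member called by edgeR or DESeq2, nor any under an unadjusted p of 0.05, with 0.201% of 8958 genes called, Meg3 at 0.39 (SE 0.48) and Dlk1 at 0.18 (SE 0.43). In the cortical group Meg3 passed under DESeq2, with no filter on low counts and without mutant 2. The difference between the cortical and matrix effects was not tested.

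**Figure D4:**
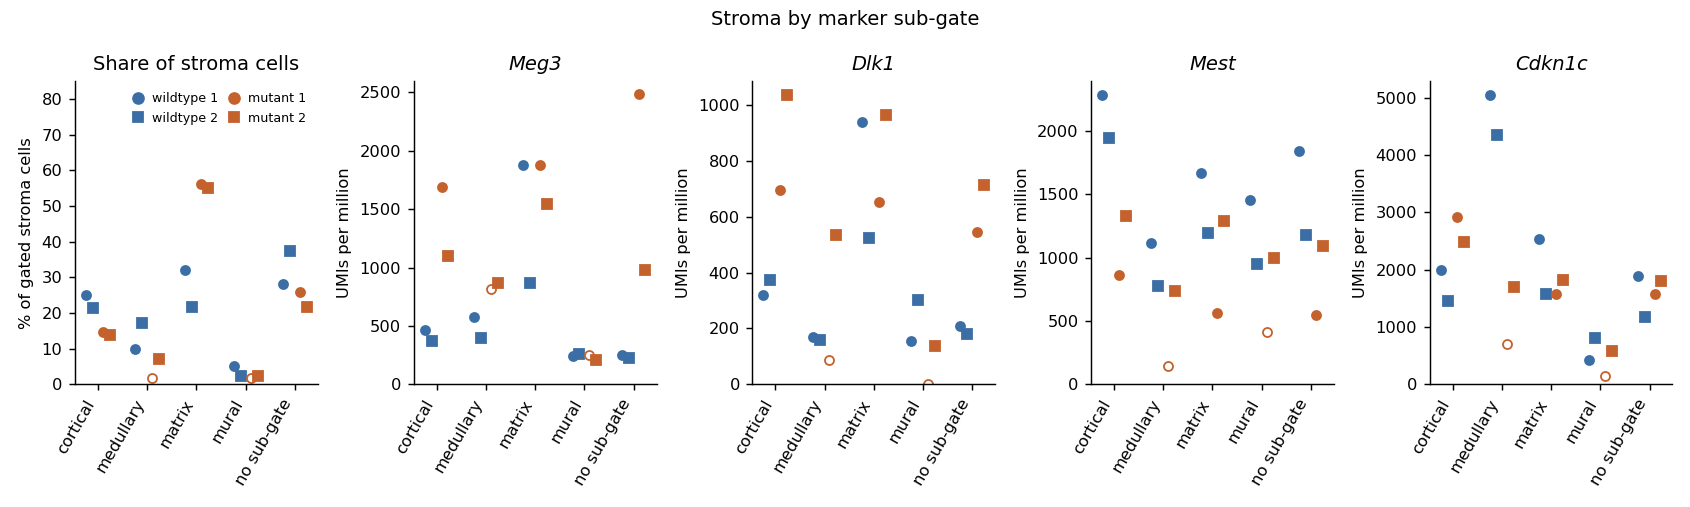
Share of gated stroma cells in each marker sub-gate (first panel, % of stroma cells) and the level of Meg3, Dlk1, Mest and Cdkn1c in each (CPM), one point per library, open where the group has under 25 cells. Matrix stroma is larger in both mutants, Meg3 and Dlk1 separate the genotypes in cortical stroma, where the matrix markers also sum higher in the mutants (548 and 422 against 179 and 150 CPM), and not in matrix stroma, and Cdkn1c is lower in mutant medullary stroma.

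In the ureteric bud and collecting duct, the epithelium that branches to form the drainage tree, Mest was lower and Meg3 higher in the mutants. Mest was at 763 and 459 CPM in the wildtypes and at 29.1 and 110 in the mutants, a log2 difference of -3.13 (SE 0.50, adjusted p = 0.0019). Meg3 was at 29.0 and 71.1 against 370 and 236, a difference of 2.54 (SE 0.45, adjusted p = 0.0059). The genotypes did not overlap for either gene. These were 2 of the 9 members tested, Dlk1 having been removed by the filter with 1, 13, 1 and 5 UMIs, and 0.247% of 8096 genes were called. Malat1 was also higher in the mutants in these cells, at 2618 and 1963 against 7492 and 8045 CPM. It was likewise higher in stroma (2839 and 1987 against 4537 and 6919) and in endothelium (1669 and 1314 against 3746 and 4901). What Malat1 and Meg3 share in this was not tested.

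The 2 calls rested on few cells, and neither passed with the replicate number as a block (adjusted p = 0.0572 for Mest and 0.125 for Meg3). After thinning cells before summing, Mest was at -2.51 (adjusted p = 0.265) and Meg3 was removed by the filter on low counts. The differences kept their direction in every alternative that gave a value, from -4.34 to -2.51 over 15 for Mest and from 2.03 to 3.37 over 14 for Meg3. Single deep barcodes gave many of the UMIs. One barcode of 268158 UMIs held 312 of the 736 Mest UMIs of wildtype 1, one of 325686 UMIs held 75 of the 137 Meg3 UMIs of wildtype 2, and one of 63416 UMIs held 51 of the 84 Meg3 UMIs of mutant 2. Without barcodes above 50000 UMIs, Mest still passed at -2.93 (adjusted p = 0.0403) and Meg3 did not, at 2.56 (adjusted p = 0.0995). The share of cells with a UMI, which weighs cells equally, was 38.1% and 33.5% against 6.06% and 4.65% for Mest, and 4.42% and 2.54% against 24.2% and 11.6% for Meg3.

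Cells with a UMI of Ret or Wnt11, markers of the branching tip, numbered 54 of 114, 115 of 201, 3 of 33 and 20 of 45 ureteric cells. Their share was lowest in mutant 1, while that of mutant 2 was close to that of wildtype 1. Wnt11 was itself called lower in the mutants (-3.05, SE 0.53, adjusted p = 0.0027), and Ret was lower without being called (-1.30, SE 0.49, adjusted p = 0.478). Fewer tip cells and less marker RNA per cell cannot be told apart here. Mest was higher in such cells of the wildtypes, at 950 and 507, than in the remaining ones, at 384 and 312. In the mutants it was at 169 in the 20 tip cells of mutant 2, and at 27.7 and 54.1 in the 30 and 25 remaining cells, below both wildtypes in each class. Meg3 in the remaining cells was at 59.8 and 99.7 against 411 and 428. In tip cells Meg3 was at 13.9, 61.9, 0 and 29.2, with no UMI in the 3 tip cells of mutant 1. Single barcodes weigh on these values. By the UMI counts, the deep Meg3 barcode of mutant 2 given above must be a remaining cell (79 UMIs there, 5 in tip cells). That of wildtype 2 must be a tip cell (90 UMIs there, 47 in remaining cells). After thinning, Meg3 was read in 5.08% and 6.02% against 26.7% and 20.8% of remaining cells. In tip cells the shares were 3.70%, 0%, 0% and 0%. The stroma markers summed to 42.5, 65.4, 37.4 and 67.4 CPM in ureteric cells, against 4334 to 11286 in stroma, and overlapped between the genotypes.

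The Mest difference varied between sets of cells. In endothelium it was at 2434 and 2121 against 1728 and 3443, which overlapped (log2 difference 0.16, SE 0.48). In stroma it was at 1823 and 1328 against 591 and 1209, lower in each mutant than in each wildtype, but not called (-0.84, SE 0.45, adjusted p = 0.874). Over all cells it was at 1062 and 813 against 490 and 1151, with overlap. In sets of cells with no test, both mutants were below both wildtypes in ungated cells (699 and 615 against 304 and 551), in proximal tubule (27.7 and 46.7 CPM against 0 and 2 UMIs in 4 and 49 mutant cells) and in nephron progenitors, where the mutants had only 1 and 3 cells. Early nephron, loop and distal tubule, and immune cells overlapped. Podocytes, from an added gate described below with few cells outside mutant 2, went the other way. Mest there was at 94.7 and 126 CPM in the wildtypes and at 468 and 345 in the mutants. The test of the difference between lineages, fitted with the library as a block, gave a genotype effect 2.34 higher in stroma than in ureteric bud (SE 0.21, adjusted p = 5.0e-07), where 0.748% of 10566 genes were called, and -0.93 in stroma relative to endothelium (SE 0.15, adjusted p = 0.0013), where 0.615% were called. Part of the Mest locus overlaps Copg2 on the opposite strand, and whether counting used the strand is not given in the sources used here.

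Cdkn1c was also uneven between lineages. In stroma it was at 2382 and 1894 in the wildtypes and at 1728 and 1853 in the mutants, and in endothelium at 212 and 218 against 561 and 392. Neither passed alone (-0.24, SE 0.46, adjusted p = 0.999 in stroma, and 1.17, SE 0.41, adjusted p = 0.873 in endothelium). The difference between these effects did, at -1.25 (SE 0.17, adjusted p = 5.9e-05). Against the mean of endothelium and ureteric bud, the genotype effect in stroma differed by -0.87 (SE 0.15, adjusted p = 0.0014), where 0.454% of genes were called and Cdkn1c and Mest were the 2 members among them. Cdkn1c passed in 12 of 13 alternatives of that contrast and Mest in 5. These 5 include a stricter gate with only stroma and endothelium, where Mest was reversed (-0.92). The contrasts of single pairs of lineages were fitted once, without alternatives. Within stroma, Cdkn1c in the medullary group (Penk, Alx1, Lef1) was at 5046 and 4349 against 703 and 1691, the mutant 1 value coming from 7 cells, while in the cortical group it was at 1995 and 1450 against 2923 and 2479. The medullary group made up 9.79% and 17.1% of stroma cells in the wildtypes and 1.67% and 7.18% in the mutants. The part of this share in the stroma value of Cdkn1c was not tested. Podocytes, the filtering cells of the glomerulus, had by far the highest Cdkn1c of any group examined, at 19214, 15726, 17209 and 19110 in 21, 10, 3 and 141 cells of a gate added after the first one proved nearly empty.

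H19 and Igf2 did not pass a test between the genotypes in any set of cells. Over all cells H19 was at 1648 and 787 in the wildtypes and at 1056 and 2838 in the mutants (log2 difference 0.56, SE 0.46), and Igf2 was at 1077 and 919 against 1232 and 1827 (0.49, SE 0.38). H19 overlapped between the genotypes and Igf2 did not. The ratio of H19 to Igf2 UMIs was 1.53, 0.856, 0.857 and 1.55, high in wildtype 1 and mutant 2 and low in the other libraries. The same held in stroma, at 1.24, 0.658, 0.664 and 1.39, and in ureteric bud, at 2.69, 1.34, 1.69 and 3.01. It did not hold in endothelium, at 0.885, 0.618, 0.982 and 1.27, where both mutants were above both wildtypes. In ureteric bud both genes separated the genotypes without being called, H19 at 1080 and 760 against 1542 and 2755 (1.18, SE 0.41, adjusted p = 0.407) and Igf2 at 401 and 569 against 915 and 915 (0.89, SE 0.41, adjusted p = 0.686).

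The remaining members, the transcription factors Plagl1 and Peg3, the adaptor Grb10 and the G protein gene Gnas, were not called in any comparison of the genotypes. Plagl1 was at 60.6 and 34.0 against 96.8 and 150 over all cells, with no overlap (log2 difference 1.28, SE 0.35, adjusted p = 0.0741), and passed in 4 of 14 alternatives, DESeq2 among them. Peg3 was at 500 and 266 against 434 and 724, which overlapped. Grb10 was at 335 and 284 against 220 and 323, with overlap as well, and its log2 difference was -0.32 (SE 0.34).

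Gnas had values in both mutants above those of both wildtypes in the 3 lineages tested, without being called in any. It was at 950 and 786 against 2086 and 1538 over all cells (0.95, SE 0.39, adjusted p = 0.378), at 1144 and 916 against 2060 and 1427 in stroma, at 1979 and 2208 against 5397 and 3540 in endothelium and at 777 and 642 against 1547 and 963 in ureteric bud. Immune cells gave the same order, at 421 and 371 against 1284 and 511. In each of these sets mutant 1 had the highest value. In endothelium no member was called out of 9 tested by edgeR or DESeq2 (3 under an unadjusted p of 0.05, as were 4.65% of all genes), where 0.101% of 7917 genes were (8), while Meg3 there was at 22.8 and 26.3 against 112 and 54.8 (1.62, SE 0.51, adjusted p = 0.717) and passed when mutant 2 was left out. The 10 neural markers summed to 13.1 and 6.30 CPM in wildtype endothelial cells and to 66.3 and 30.2 in mutant ones, with 3, 2, 2 and 7 of them read and Sox10 at 0 in each library. Most of both mutant sums was a single gene, Stmn2, so they do not describe the list as a whole. On the TMM scale of the fit Stmn2 was at 4.81, 5.59, 70.1 and 19.3, and it was not called (2.62, SE 0.74, adjusted p = 0.476). The stroma markers there summed to 561, 369, 306 and 423 and overlapped between the genotypes. The part of the neural markers in the Meg3 value was not tested.

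Of 38 other imprinted genes, 36 were in the files, 30 were tested over all cells and 3 were called, all higher: Zim1 (2.13, SE 0.47, adjusted p = 0.0186), Nap1l5 (3.66, SE 0.82, adjusted p = 0.0201) and Asb4 (1.38, SE 0.35, adjusted p = 0.0474). Asb4 was at 25.5 and 18.9 CPM against 50.7 and 74.3, whereas Zim1 and Nap1l5 were below 15 in every library. The median log2 difference of the 30 tested was 0.20, against 0.01 over all genes, of which 1.19% of 15776 were called. Of 18 IGF pathway genes, 1 was called, Igfbp7, which encodes an IGF binding protein, at 96.0 and 109 against 268 and 371 (1.49, SE 0.33, adjusted p = 0.0189). None of the 6 cyclin-dependent kinase inhibitors or 8 Delta and Notch partners tested was called by edgeR's quasi-likelihood test, and 1 in each list was under an unadjusted p of 0.05, Cdkn2c (1.32, unadjusted p = 0.0289) and Dll4 (1.15, unadjusted p = 0.025). In stroma no gene of these lists passed.

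Across 27 sums of a lineage within a library, the gene whose level ran closest to Meg3 was Rian (Pearson r = 0.94), a noncoding RNA of the same imprinted region, followed by Dlk1 (r = 0.88) and Agtr2 (r = 0.88), an angiotensin receptor gene. The nearest to Dlk1 were Agtr2 (r = 0.96), Gria4 (r = 0.95) and Nrk (r = 0.93). Igf2 ran closest to Sparc (r = 0.93), Grb10 to Nrep (r = 0.92) and Plagl1 to Rhoj (r = 0.90), while H19 ran closest to a row named H19_1 (r = 0.93), whose reads may share its locus, so the split between these rows is uncertain. Mest ran closest to Plk2 (r = 0.86), Cdkn1c to Arhgef25 (r = 0.88), Peg3 to Ccnd2 (r = 0.89) and Gnas to Epas1 (r = 0.87). These values are descriptions over 9361 genes, on log2 levels with 10 added, and the sums share libraries and depth.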

How the data were processed

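Drop-seq libraries of 2 wildtype and 2 mutant kidney samples were used. The authors deposited whole-number UMI counts per gene and barcode, without normalization, as the values themselves show, and mm10 and Bowtie2 2.2.7 are named per the submitters' processing notes. Their other steps, and any use of strand in counting, are not given in the sources used here. Of 15144 barcodes, those with at least 500 genes and at most 10% mitochondrial UMIs were kept, and the 5% with the highest Scrublet scores per library (620) were left out, leaving 11779. The libraries shared 3 barcodes. A cell joined a lineage with at least 3 UMIs over at least 2 of its markers and 66.7% of all marker UMIs over 12 lists. Sub-gates of stroma asked for at least 2 UMIs of a list and more than of any other. Lineages with at least 25 cells in each library were summed per library and tested over all genes with edgeR 4.0.16 (quasi-likelihood test, TMM, filterByExpr, robust) in R 4.3.3. Contrasts between lineages had the library as a block. An exact permutation test of 2 against 2 libraries cannot go below p = 0.333, so none was used. Intervals cover counting error only.

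The 10 genes and the lists were chosen with earlier results of these data known. All 10 genes are named. Of each other list, the genes named are those past the test over all cells or in stroma, up to 4 by p, and otherwise the 2 with the smallest p, besides the 3 nearest genes of each member, of which some are printed. The ureteric bud values of Asb4 and Igfbp2 were added to these. The tests were tried on simulated counts with known changes. Of the calls, 11.7% were false over all cells, 5.47% in stroma, 5.22% in endothelium and 1.25% in ureteric bud. Of 2-fold changes, 7.46%, 13.4%, 8.96% and 1.49% were recovered in the same order, and of 4-fold changes 64.2%, 74.6%, 64.2% and 44.8%. A 2-fold change was therefore mostly missed. Alternatives changed the test, filters, gates, cell depth and libraries used, and those on thinned sums, deep barcodes, neural cells, crossed numbers, the stroma groups and the podocyte gate were chosen after seeing the data.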

Additional observations from a re-analysis of the deposited data

Results flagged for a closer look

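The genotype effect on 2 genes differed between lineages by a test of the difference itself. For Cdkn1c, the effect in stroma minus the mean effect in endothelium and ureteric bud was -0.87 on the log2 scale (SE 0.15, edgeR, adjusted p = 0.0014), and stroma minus endothelium alone was -1.25 (SE 0.17, adjusted p = 5.9e-05). Both mutants were lower than both wildtypes in stroma and higher in endothelium. For Mest, stroma minus the mean of the others was 0.71 (SE 0.15, adjusted p = 0.0308), made of -0.93 against endothelium (adjusted p = 0.0013) and 2.34 against ureteric bud (adjusted p = 5.0e-07), which point in opposite directions, so the mean of the others describes neither lineage. Cdkn1c was called in 12 of 13 alternatives of the combined contrast and Mest in 5. These 5 include the stricter gate, where only stroma and endothelium were compared and Mest was reversed (-0.92).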

How the results depend on the processing

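Over all cells, Meg3 and Dlk1 were called in 13 of 14 alternatives each. After cells were thinned to 1000 UMIs before summing, 0 of the 10 genes were called (Meg3 at 2.16, adjusted p = 0.0575, and Dlk1 at 1.57, adjusted p = 0.0801), with 27 genes called in all. Leaving out 1 library at a time left 2 to 3 members called over all cells, 0 to 1 in stroma and in endothelium (1 without mutant 2, Meg3 in each), 2 in ureteric bud, 0 to 1 in cortical stroma and 1 to 4 in the stroma interaction. Genes called over all cells ranged from 27 to 403 (188 as reported), in stroma from 9 to 161 (27), in endothelium from 0 to 71 (8), in ureteric bud from 0 to 100 (20), in cortical stroma from 0 to 108 (41), in matrix stroma from 13 to 90 (18), in the interaction from 10 to 107 (48), and in the stroma, endothelium and ureteric contrasts from 1133 to 4917 (3949), 1053 to 4760 (4251) and 801 to 4561 (3882). In ureteric bud 0 members were called with the replicate block and with thinned sums, where 1596 genes and 7 members were tested and Meg3 was not among them, and 1 without barcodes above 50000 UMIs. The labels give no pairing, and deviations of same-numbered libraries correlated between -0.164 (matrix stroma) and 0.0791 (all cells), so the libraries share only a number. The block left 0 genes called in ureteric bud and in cortical stroma, 48 in stroma, 20 in endothelium, 30 in matrix stroma and 152 over all cells, and moved no other count of members; the crossed block gave 37 genes in ureteric bud, 13 in matrix stroma, 0 in cortical stroma, 9 in stroma, 8 in endothelium and 246 over all cells. In cortical stroma DESeq2 and no filter each called 1 member. The stroma interaction had 1 member (Cdkn1c) with at least 1000 genes per cell, with no doublet step, with no mitochondrial limit, with the looser gate and with the stroma list without collagens, and 1 (Peg3) with thinned sums. With the stricter gate only stroma and endothelium had enough cells, so those contrasts compare 2 lineages. Mest in the interaction then became -0.92 and was called. Igf2 in stroma became -0.34, Grb10 in stroma -0.030 and Plagl1 in endothelium -0.54. Gnas in stroma became 0.081 with no mitochondrial limit, and Plagl1 in ureteric bud 0.026 with the looser gate; the cause was not tested. The difference in cells with a Mest UMI in ureteric bud was -30.4 percentage points at 1000 UMIs, -21.0 at 500 and -40.6 at 2000. With the stricter gate ureteric bud gave no value. The 33 and 45 mutant ureteric cells limit the precision there.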
